A study of Mus musculus with 72 samples.

Results

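Interferon response genes are the genes that cells switch on when type I or type II interferon reaches its receptor, and they were followed here in the liver and lung of irradiated mice. The members were taken from a list of 44 well known gene names and not by their measured values. Earlier results of these data were known when the list was chosen. Of these, 42 were matched to a probe on the arrays, out of 23788 genes with a named probe in the series. Mx2 and Tgtp1 were not matched, so no level of either is given, and Tgtp1 enters only the promoter counts. The 42 genes are represented by 57 probes, and each gene is described by its brightest probe over all 36 arrays.

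Interferons bind cell surface receptors whose Janus kinases phosphorylate STAT proteins. Type I interferon signals through a complex that holds STAT2 and IRF9 and binds the interferon-stimulated response element (ISRE), while interferon gamma acts at the gamma-activated site (GAS). The genes they induce block viral replication, present antigen and attack intracellular pathogens, and many are expressed at a basal level in liver and lung without infection.

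Female C57BL/6 J mice aged 6 to 8 weeks received X-rays to the whole body at once, at 1.05 Gy/min, and the doses were 12, 8, 4, 2 and 1 Gy beside a sham group at 0 Gy. Liver and lung were taken 48 h later from 3 mice per dose, so that each tissue has 18 arrays and 6 dose groups. The mice carried no genetic change that the labels name, and mice are named below by the number in their labels. Poly(A) RNA amplified from total RNA was measured on Agilent arrays with a single dye, each holding 1 tissue of 1 mouse. Levels are log2 normalized signals, and a probe's signal is not comparable with that of another probe. Bulk RNA cannot tell fewer cells of a type apart from less RNA per cell.

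The tissue labels were checked against markers. The summed signal of 10 hepatocyte markers was 2795020 to 2892060 in unirradiated liver and 42370 to 43733 in unirradiated lung, and that of 8 lung epithelial markers was 2840 to 5370 in liver and 1382430 to 1465490 in lung, each tissue normalized on its own. Between 46.1% and 54.0% of spots on a liver array and between 54.1% and 64.0% on a lung array were well above background, and no spot was saturated. Cdkn1a, the p53 target that halts the cell cycle, was 6.33 higher on the log2 scale at 12 Gy in liver (standard error, SE, 0.24, limma adjusted p = 2.3e-09) and 3.65 higher in lung (SE 0.20, adjusted p = 2.0e-08). The 5 array slides overlapped with dose. In liver, slide 1 held 0 Gy, 1 Gy and 2 of the 2 Gy arrays, slide 2 held the third 2 Gy array, 4 Gy, 8 Gy and 1 of the 12 Gy arrays, and slide 3 held the other two. In lung, slide 3 held 0 and 1 Gy, slide 4 held 2 Gy, 4 Gy and 2 of the 8 Gy arrays, and slide 5 held the third 8 Gy array and 12 Gy. The 4 lung arrays on slide 5 had 54.1% to 54.8% of spots above background, against 59.2% or more on every other lung array.

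Matches to the textbook ISRE were spread unevenly over the promoter windows searched. Elements outside the windows or of another spelling were not searched, so a promoter without a match may still hold one. RefSeq promoters of the GRCm38.p6 build, from 250 bases before to 50 bases after the start, were found for 32 of the 44 listed genes. The ISRE was searched on both strands as GAAA, any 2 bases and GAAA, which reads TTTC, any 2 bases and TTTC on the other strand, and it stood in 19 of the 32 promoters (59.4%) against 3.99% of 27025 genes with a promoter. The GAS, searched as TTCNNNGAA, stood in 11 of the 32 (34.4%) against 9.55% of all genes. Both motifs can overlap themselves and each other. The stretches shown are those of genes whose levels are described below, written along each gene's strand with ISRE matches in capitals. Isg15 (chr4:156200855-156200916, minus strand) holds 3 overlapping matches in 22 bases, Ifit1 (chr19:34640765-34640833, plus strand) holds 2, and Rsad2 (chr12:26456543-26456592, minus strand) and Gbp2 (chr3:142620584-142620633, plus strand) hold 1 each.
Isg15: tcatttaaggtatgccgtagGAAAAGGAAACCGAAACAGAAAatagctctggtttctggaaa
Ifit1: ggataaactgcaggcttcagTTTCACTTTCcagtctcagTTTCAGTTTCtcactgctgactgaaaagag
Rsad2: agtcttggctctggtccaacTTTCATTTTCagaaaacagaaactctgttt
Gbp2: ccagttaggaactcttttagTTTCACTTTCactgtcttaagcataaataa

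The neighbouring GTPase genes Igtp (chr11:58199502-58199551, plus strand) and Irgm2 (chr11:58214893-58214942, plus strand) are shown because their stretches around the match are equal at 48 of 50 bases.
Igtp: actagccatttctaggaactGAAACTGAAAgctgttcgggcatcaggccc
Irgm2: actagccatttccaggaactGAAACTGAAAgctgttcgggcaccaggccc

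Psmb9 and Tap1, which supply peptides for MHC class I, start in opposite directions from a shared stretch of 225 bases on chr17:34187331-34187555, given on the plus strand. It is shown as a promoter without an ISRE match that serves 2 members.
Psmb9 and Tap1: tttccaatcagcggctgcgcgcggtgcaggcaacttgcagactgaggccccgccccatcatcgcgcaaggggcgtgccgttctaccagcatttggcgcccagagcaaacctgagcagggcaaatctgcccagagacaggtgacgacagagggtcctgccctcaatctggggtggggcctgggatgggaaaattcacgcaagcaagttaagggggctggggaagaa

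In liver, interferon response genes were lower with dose. A gene was called where its log2 change against 0 Gy exceeded 1 in size and its adjusted p, over all probes tested in that comparison, was under 0.05. At 12 Gy 13 of 42 members were called lower and 0 higher, whereas 1.33% of the 38362 liver probes tested were called lower and 0.730% higher. All 42 members lay below 0 at 12 Gy, with a median log2 change of −0.73 against 0.01 over all probes, and 34 had no overlap with the 0 Gy mice (15.0% of all probes lay wholly below them and 14.8% wholly above). At 8 Gy 9 members were called lower and 0 higher (1.37% and 0.839% of all probes), 40 lay below 0 and the median was −0.63. At 4 Gy 1 member was called lower and 0 higher (0.623% and 0.321% of all probes), 36 lay below 0 and the median was −0.27. No member was called by limma at 1 Gy or at 2 Gy (0.0209% and 0.164% of all probes were called lower, 0.0130% and 0.0808% higher), where 5 and 3 members were lower at an unadjusted p under 0.05 and 0 higher (3.35% and 6.13% of all probes were lower at that limit, 3.72% and 5.67% higher). A linear fit over all doses, expressed as the change over 12 Gy, called 14 members lower and 0 higher (1.14% and 0.892% of all probes). At an adjusted p under 0.05 alone 3 members were lower at 4 Gy, 16 at 8 Gy, 21 at 12 Gy and 28 on the trend, and 0 were higher, against 1.71%, 4.94%, 4.11% and 5.47% of all probes lower and 1.59%, 4.95%, 2.91% and 4.04% higher.

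**Figure D1:**
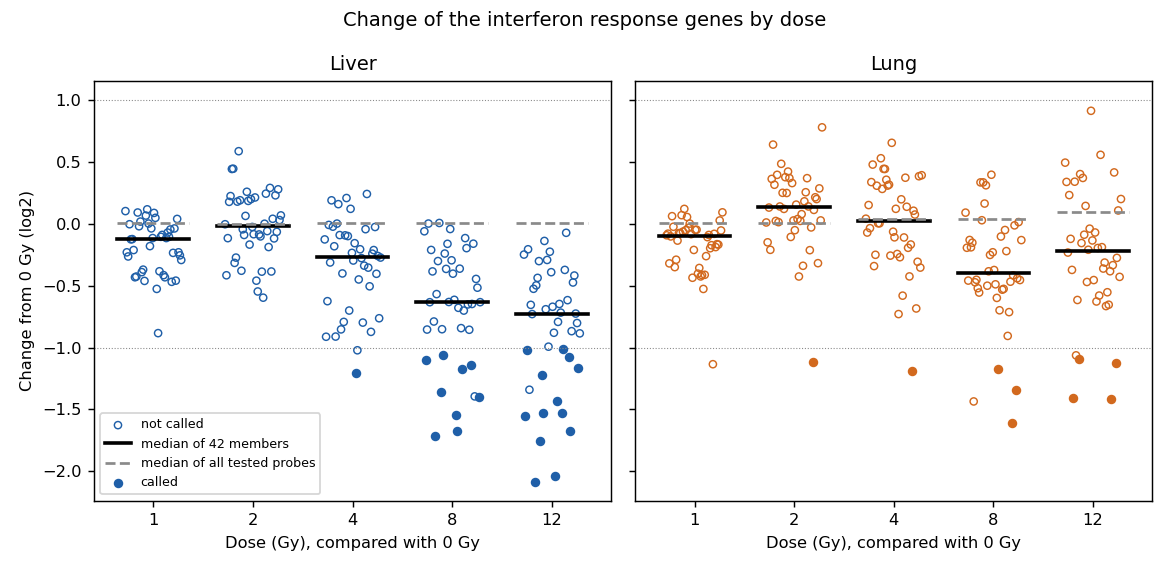
Log2 change of each of the 42 members against the mean of the 0 Gy mice, by dose in Gy, in liver and in lung, with members that were called marked and the median of all probes drawn for comparison. In liver all 42 members lie below 0 at 12 Gy, and in lung they spread to both sides, with 30 below 0.

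Isg15, a ubiquitin-like protein that interferon induces and that is attached to other proteins, was lower at each of the 3 highest doses in liver. Its log2 levels were 12.53, 12.25 and 12.13 at 0 Gy, 11.70, 11.86 and 11.78 at 1 Gy, 11.62, 12.17 and 11.75 at 2 Gy, 11.11, 11.35 and 10.83 at 4 Gy, 10.79, 10.47 and 11.01 at 8 Gy, and 10.14, 10.67 and 10.004 at 12 Gy. All mice at 4, 8 and 12 Gy lay below every 0, 1 and 2 Gy mouse. Isg15 fell by 1.21 at 4 Gy (SE 0.20, adjusted p = 0.00588), the only member called at that dose by its brightest probe. At 12 Gy it stood at 0.244 times its unirradiated level (log2 change −2.03, SE 0.20, adjusted p = 4.25e-05). Usp18, the protease that removes ISG15, changed by −0.80 at 12 Gy (adjusted p = 0.0609) and was not called.

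The IFIT proteins bind viral RNA, and all 3 members were downregulated at 12 Gy in liver. Ifit1 levels were 10.23, 9.56 and 9.75 at 0 Gy, 9.60, 9.26 and 9.52 at 1 Gy, 9.09, 9.76 and 9.55 at 2 Gy, 8.79, 9.30 and 8.88 at 4 Gy, 8.48, 8.03 and 8.94 at 8 Gy, and 7.87, 8.46 and 7.95 at 12 Gy. Every mouse at 4 Gy and above was below every 0 Gy mouse, and the change at 12 Gy was −1.75 (SE 0.25, adjusted p = 0.00083). Ifit3 levels were 12.15, 11.63 and 11.84 at 0 Gy, 11.45, 11.41 and 11.37 at 1 Gy, 11.55, 11.95 and 11.85 at 2 Gy, 11.15, 11.53 and 10.57 at 4 Gy, 10.79, 10.29 and 11.37 at 8 Gy, and 10.18, 10.71 and 10.13 at 12 Gy. The Ifit3 mice at 2 Gy overlapped those at 0 Gy, and the change was −1.53 at 12 Gy (SE 0.27, adjusted p = 0.00325). Ifit2 levels were 7.54, 7.06 and 7.35 at 0 Gy, 6.88, 6.95 and 7.01 at 1 Gy, 7.10, 7.51 and 7.21 at 2 Gy, 6.80, 7.25 and 6.69 at 4 Gy, 6.32, 6.23 and 6.85 at 8 Gy, and 6.03, 6.02 and 6.22 at 12 Gy. Ifit2 changed by −0.85 at 8 Gy, short of the call, and fell by 1.22 at 12 Gy (SE 0.19, adjusted p = 0.00116).

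Rsad2 (viperin), which makes a chain-terminating nucleotide, and Cmpk2, a mitochondrial kinase that supplies its substrate, are divergent neighbours on mouse chromosome 12 with 12762 bases between their starts, and both fell in liver. Rsad2 levels were 10.24, 10.16 and 10.14 at 0 Gy, 9.60, 9.80 and 9.73 at 1 Gy, 9.68, 9.84 and 9.86 at 2 Gy, 9.16, 9.51 and 9.24 at 4 Gy, 8.99, 8.49 and 9.63 at 8 Gy, and 8.22, 8.75 and 8.54 at 12 Gy. Every irradiated mouse was below every 0 Gy mouse, and the change reached −1.68 at 12 Gy (SE 0.22, adjusted p = 0.000369). Another, dimmer Rsad2 probe was not well above background on any array at 8 or 12 Gy. Its mean was 2.01-fold lower at 8 Gy (adjusted p = 0.00289) and 1.91-fold lower at 12 Gy (adjusted p = 0.00437). Cmpk2 levels were 8.51, 8.24 and 8.54 at 0 Gy, 8.45, 8.01 and 8.14 at 1 Gy, 8.02, 8.21 and 7.81 at 2 Gy, 7.44, 7.60 and 7.52 at 4 Gy, 7.37, 7.05 and 7.57 at 8 Gy, and 6.48, 7.15 and 7.01 at 12 Gy. The Cmpk2 change at 12 Gy was −1.55 (SE 0.19, adjusted p = 0.000202). Mx1, a gene of the dynamin-like GTPase family, gave 7.49, 7.12 and 7.38 at 0 Gy, 6.09, 7.05 and 6.20 at 1 Gy, 6.82, 6.92 and 6.62 at 2 Gy, 6.23, 6.81 and 5.89 at 4 Gy, 4.77, 5.66 and 6.54 at 8 Gy, and 5.55, 6.44 and 5.71 at 12 Gy. The first mouse at 8 Gy and the first at 12 Gy were not well above background for Mx1, and the change at 12 Gy was −1.43 (SE 0.38, adjusted p = 0.0361). The Mx1 call at 12 Gy was lost without any single 0 Gy mouse, and without the 12 Gy mouse 6 or 26.

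Oligoadenylate synthetases make the messenger that activates RNase L, and Oas1a, Oas2, Oasl1 and Oasl2 had an adjusted p under 0.05 and a lower level at 12 Gy in liver, 2 of them past the fold limit. Oasl1, an OAS-like protein without synthetase activity, gave 10.07, 10.29 and 10.002 at 0 Gy, 9.94, 9.55 and 9.63 at 1 Gy, 9.28, 9.54 and 9.75 at 2 Gy, 9.38, 9.34 and 9.24 at 4 Gy, 8.92, 8.14 and 9.78 at 8 Gy, and 8.68, 8.84 and 8.25 at 12 Gy. At 8 Gy 1 mouse stood above every 2 and 4 Gy mouse while the other two were below them, and the change at 12 Gy was −1.53 (SE 0.30, adjusted p = 0.00584). Another Oasl1 probe, well above background on every array, was called at 4 Gy (−1.07, adjusted p = 0.0206), where the brightest was not. It was also called at 8 Gy (−1.25, adjusted p = 0.00452) and 12 Gy (−1.55, adjusted p = 0.000901). Oasl2 fell by 1.01 at 12 Gy (adjusted p = 0.00669), a call lost without the 0 Gy mouse 1 or 21. Oas1a and Oas2 changed by −0.79 and −0.65 without passing the fold limit. The Oas3 probe was well above background on 2 arrays of each tissue, all at 0 Gy. With 12 Gy values under the lowest detected level of their array counted as that level, its 12 Gy mean in liver was 1.64-fold under that at 0 Gy (adjusted p = 0.0158).

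The guanylate-binding proteins coat pathogen vacuoles, and they differed widely among themselves. Gbp6 gave 9.50, 8.43 and 8.90 at 0 Gy, 8.91, 8.40 and 8.25 at 1 Gy, 8.18, 9.72 and 8.11 at 2 Gy, 7.55, 8.75 and 7.80 at 4 Gy, 6.97, 6.98 and 7.72 at 8 Gy, and 6.91, 6.99 and 6.68 at 12 Gy. The 8 and 12 Gy mice were all below the 0 Gy mice, and the change at 12 Gy was −2.08 (SE 0.42, adjusted p = 0.0072). Gbp2 gave 10.14, 9.46 and 9.59 at 0 Gy, 9.94, 9.30 and 9.56 at 1 Gy, 9.49, 10.54 and 9.83 at 2 Gy, 9.15, 10.47 and 8.62 at 4 Gy, 8.67, 8.77 and 9.85 at 8 Gy, and 8.27, 8.67 and 8.23 at 12 Gy. Mice of 1 dose differed by more than 1 in Gbp2 at 2, 4 and 8 Gy, and the change at 12 Gy, −1.34 (SE 0.43, adjusted p = 0.0746), was not called, while the dose trend was (−1.37, SE 0.33, adjusted p = 0.0113). Gbp3, Gbp4 and Gbp7 ranged from −0.73 to −0.50 at 12 Gy and were not called. Gbp5 was above background on only 4 liver arrays, 1 of them at 0 Gy and none at 12 Gy. Counted as for Oas3, its 12 Gy mean was 1.44-fold lower, and its mice at 12 Gy overlapped those at 0 Gy (adjusted p = 0.561).

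Among the remaining members, Xaf1, a pro-apoptotic inhibitor of XIAP, fell by 1.17 at 12 Gy in liver (SE 0.26, adjusted p = 0.0144). The mean of another Xaf1 probe, not well above background at 12 Gy, was 1.41-fold lower and not called (adjusted p = 0.244). Psmb9, an immunoproteasome subunit, fell by 1.08 (SE 0.30, adjusted p = 0.0457), and Dhx58, a regulator of RIG-I-like receptors, fell by 1.02 (adjusted p = 0.00467). The call of Psmb9 was lost under 16 of 29 alternatives, among them leaving out any one of 11 of the 18 mice, the 3 mice at 0 Gy and the 3 at 1 Gy included. Those of Dhx58 and Xaf1 were lost without the 0 Gy mouse 1 or the 12 Gy mouse 6 or 26. Irgm2, an immunity-related GTPase, was called lower on the trend alone (−1.05, adjusted p = 0.013). By their brightest probes the 4 transcription factors all lay below 0 at 12 Gy, by differing amounts. Irf1 changed by −0.99 (adjusted p = 0.00756), just short of the fold limit. Another Irf1 probe was called at 8 Gy (−1.34, adjusted p = 0.00488) and not at 12 Gy (−0.79, adjusted p = 0.0762). Stat2 changed by −0.47 (adjusted p = 0.0399), while another Stat2 probe gave 0.24 (adjusted p = 0.827). Irf9 changed by −0.39 (adjusted p = 0.385) and Irf7 by −0.23 (adjusted p = 0.400). Zbp1, a sensor of Z-form nucleic acid, changed by −0.89 (adjusted p = 0.102) with its brightest probe and by −1.33 (adjusted p = 0.00572) with another. Psmb8, Irgm1 and Rtp4 had adjusted p values under 0.05 at 12 Gy with changes from −0.87 to −0.62. The other members, Bst2, Dtx3l, Ifi44, Ifih1, Ifitm3, Igtp, Iigp1, Parp14, Parp9, Tap1 and Trim30a, lay between −0.73 and −0.07 and did not pass.

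**Figure D2:**
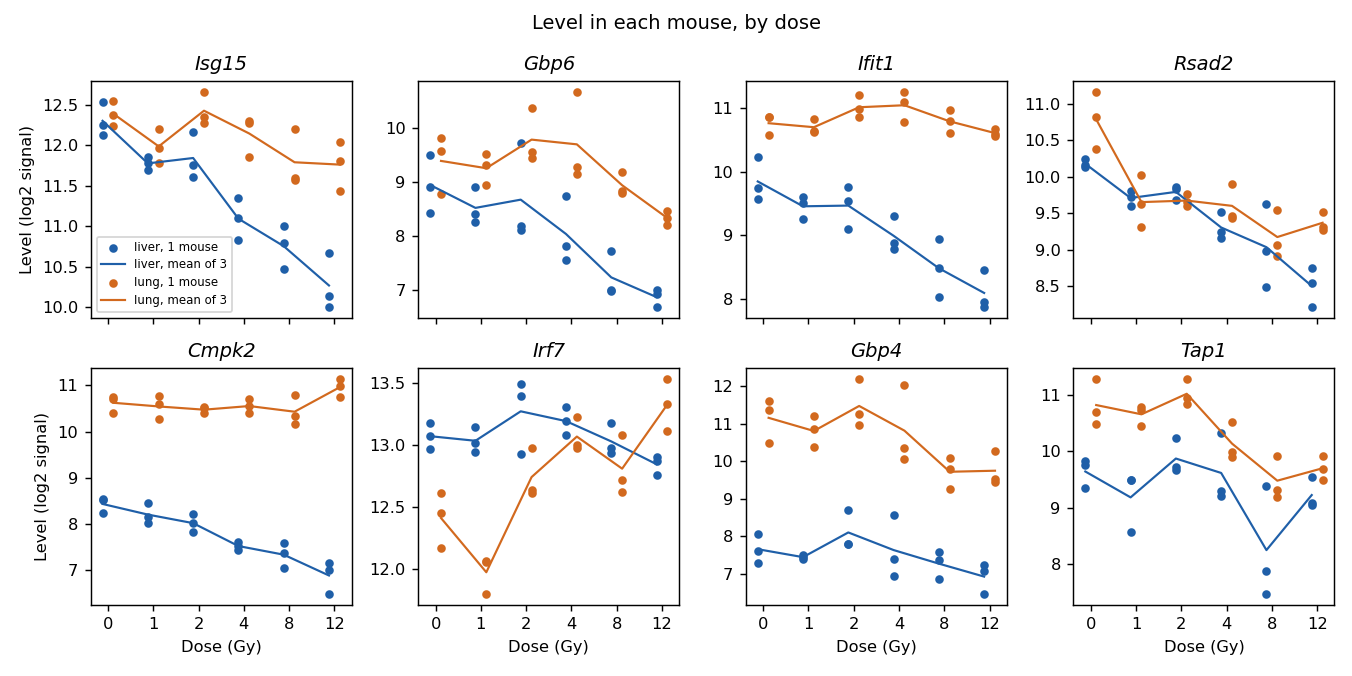
Log2 normalized signal of selected members in each mouse, by dose in Gy, for liver and lung, with 1 point per mouse and a line through the means of 3 mice. Liver and lung were normalized separately and the vertical axes differ between panels, so levels are read within 1 tissue and 1 gene. Isg15 in liver steps down from 12.13 or more at 0 Gy to 10.67 or less at 12 Gy.

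With slide as a fixed term, 1 member (Cmpk2) was called in liver at 12 Gy, 37 of 42 lay below 0 and the median was −0.54. Isg15 then changed by −2.03 with an SE of 0.44 (adjusted p = 0.0545) and Gbp6 by −1.19 (adjusted p = 0.617), and at 8 and 4 Gy 0 members were called. Within slide 2, which holds 8 liver arrays from 2 to 12 Gy, the trend called 0 members of 41 tested and 1 of 33606 probes, all 41 lay below 0 and the median was −1.01 over 12 Gy, against −0.03 over all probes. Within slide 1, which holds 0 to 2 Gy, 0 were called (0.0613% of all probes lower and 0.0146% higher) and 21 of 42 lay below 0. The median there was 0.05, a slope from these doses extended to 12 Gy. Without the 0 Gy mouse 1, 8 members were called at 12 Gy, with Dhx58, Mx1, Oasl2, Psmb9 and Xaf1 lost, and 5 at 8 Gy. Without the 8 Gy mouse 5 or 15, 5 and 4 members were called at 8 Gy, and without the 0 Gy mouse 11, 2 were called at 4 Gy.

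In lung fewer of these genes were called. At 12 Gy 4 of 42 members were called lower and 0 higher, against 4.30% of the 43979 probes called lower and 3.03% called higher. The median of the members was −0.22 and that of all probes 0.09, and 30 members lay below 0. At 8 Gy 3 members were called lower and 0 higher (1.99% and 0.525% of all probes), 34 lay below 0 and the median was −0.40. At 4 Gy and at 2 Gy 1 member each was called lower and 0 higher (1.22% and 0.373% of all probes were called lower, 0.239% and 0.0705% higher), with medians of 0.02 and 0.14, and 10 of 42 members lay below 0 at 2 Gy. At 1 Gy limma called 0 members (0.0114% of all probes called lower and 0.0114% higher), with 5 lower and 0 higher at an unadjusted p under 0.05 (3.12% and 2.4% of all probes). The trend called 4 lower and 0 higher (4.35% and 2.70% of all probes). At an adjusted p under 0.05 alone 5 members were lower and 0 higher at 8 Gy (2.57% and 1.68% of all probes), 7 lower and 2 higher at 12 Gy (7.80% and 13.5%), and 14 lower and 3 higher on the trend (11.0% and 19.6%).

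At 12 Gy in lung 11 members lay wholly below the 0 Gy mice and 5, Bst2, Ifih1, Ifit2, Irf7 and Oas2, lay wholly above them (13.3% and 21.6% of all probes). Scaling each array to its 75th percentile in place of quantile normalization moved the median of all lung probes at 12 Gy from 0.09 to 0.25. It called 5 members lower and 1 higher, the 1 being Irf7 at 1.17, with 23 of 42 below 0 and a member median of −0.11. The share of all probes called under that scaling is not given here, so these counts cannot be set against it.

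By its brightest probe, Rsad2 was called lower at 4 of the 5 doses in lung, from 2 Gy upwards. Its levels were 10.38, 10.82 and 11.17 at 0 Gy, 9.31, 10.02 and 9.63 at 1 Gy, 9.65, 9.77 and 9.60 at 2 Gy, 9.43, 9.91 and 9.47 at 4 Gy, 8.92, 9.54 and 9.07 at 8 Gy, and 9.31, 9.52 and 9.28 at 12 Gy. Every irradiated mouse was below every unirradiated one. The change was −1.13 at 1 Gy (adjusted p = 0.114), −1.11 at 2 Gy (adjusted p = 0.0396), −1.19 at 4 Gy (adjusted p = 0.0101), −1.61 at 8 Gy (adjusted p = 0.000427) and −1.42 at 12 Gy (SE 0.23, adjusted p = 0.000784). The linear trend, −0.997 (SE 0.29, adjusted p = 0.0152), did not pass the fold limit. The call at 2 Gy was lost without any one of 10 of the 18 mice, among them each of the 3 mice at 2 Gy, and the call at 4 Gy was lost without the 0 Gy mouse 21 or the 4 Gy mouse 24. The dimmer Rsad2 probe was not called at 2 Gy in lung (−0.70, adjusted p = 0.290). It was called at 4, 8 and 12 Gy, where no array was well above background for it, and on the trend (−1.12, adjusted p = 0.00176).

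Tap1, the transporter that carries peptides into the endoplasmic reticulum, gave 11.29, 10.70 and 10.48 at 0 Gy, 10.74, 10.44 and 10.79 at 1 Gy, 10.94, 11.29 and 10.83 at 2 Gy, 10.52, 9.90 and 9.99 at 4 Gy, 9.92, 9.32 and 9.19 at 8 Gy, and 9.69, 9.48 and 9.92 at 12 Gy in lung. The 8 and 12 Gy mice lay below all 0, 1 and 2 Gy mice, and the change at 12 Gy was −1.12 (SE 0.25, adjusted p = 0.00563). Another Tap1 probe gave −0.04 (adjusted p = 0.933). Psmb9, which shares the stretch between their starts, changed by −0.38 in lung (adjusted p = 0.242), and Psmb8 by −0.65 (adjusted p = 0.0236).

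Mx1 in lung gave 8.71, 8.44 and 8.48 at 0 Gy, 8.19, 8.30 and 8.07 at 1 Gy, 8.20, 8.17 and 7.97 at 2 Gy, 8.03, 7.75 and 7.66 at 4 Gy, 7.15, 7.27 and 7.68 at 8 Gy, and 8.13, 8.83 and 8.09 at 12 Gy. It was called at 8 Gy (−1.18, SE 0.20, adjusted p = 0.00201) and not at 12 Gy (−0.20, adjusted p = 0.524), where 1 mouse exceeded all 0 Gy mice. The 12 Gy lung arrays lie on another slide than 2 of the 3 arrays at 8 Gy, and the part of the slide in this was not tested.

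Gbp4 in lung gave 11.59, 10.49 and 11.37 at 0 Gy, 11.19, 10.36 and 10.86 at 1 Gy, 11.26, 12.19 and 10.96 at 2 Gy, 10.05, 12.03 and 10.35 at 4 Gy, 9.26, 10.09 and 9.80 at 8 Gy, and 9.45, 10.26 and 9.52 at 12 Gy. The 4 Gy mice were spread over nearly 2 log2 units, and the change at 12 Gy was −1.41 (SE 0.47, adjusted p = 0.0449). That call was lost under 10 of 28 alternatives, among them leaving out any single 12 Gy mouse, the 0 Gy mouse 1 or 21, the 1 Gy mouse 2 or 22, or the 2 Gy mouse 3. Gbp6 gave 9.82, 8.78 and 9.58 at 0 Gy, 9.51, 8.94 and 9.32 at 1 Gy, 9.44, 10.38 and 9.55 at 2 Gy, 9.15, 10.68 and 9.27 at 4 Gy, 8.84, 9.18 and 8.80 at 8 Gy, and 8.46, 8.20 and 8.33 at 12 Gy. The same mice, the second at 2 Gy and the second at 4 Gy, were the highest for Gbp4 and Gbp6. Gbp6 was called on the trend (−1.14, SE 0.32, adjusted p = 0.0124) and not at 12 Gy (−1.06, adjusted p = 0.0505).

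Ifi44, an interferon-induced antiviral protein, gave 9.11, 8.79 and 8.95 at 0 Gy, 8.83, 8.97 and 8.82 at 1 Gy, 8.52, 9.57 and 9.19 at 2 Gy, 8.94, 8.84 and 9.08 at 4 Gy, 8.43, 9.11 and 7.64 at 8 Gy, and 8.24, 7.47 and 7.86 at 12 Gy in lung. The 12 Gy mice were below all 0 Gy mice, with a change of −1.10 (SE 0.31, adjusted p = 0.0228), a call lost without the 0 Gy mouse 1 or 21 or the 12 Gy mouse 16 or 26. Without the 0 Gy mouse 1, the 0 Gy mouse 21 or the 12 Gy mouse 16, only 2 members were called in lung at 12 Gy, and without the 12 Gy mouse 26 the trend called 6 lower and 1 higher. By their brightest probes, the other members in lung lay between −0.66 and 0.91 at 12 Gy and were not called. The probes of Irf1 disagreed in lung, with −0.04 (adjusted p = 0.899) for the brightest at 12 Gy and, for another that was above background on every array, a called −1.09 at 8 Gy (adjusted p = 0.0106), −1.33 at 12 Gy (adjusted p = 0.00125) and −1.43 on the trend (adjusted p = 0.000213). Without the slide that holds the 12 Gy arrays, the lung trend called Mx1, Psmb8 and Tap1 lower and the median was −0.49. Of all probes 2.56% were then called lower and 1.72% higher. Within slide 4, which holds 2 to 8 Gy, 0 members were called (0.278% and 0.0273% of all probes), 39 of 41 lay below 0 and the median was −0.91. Both medians are slopes from doses up to 8 Gy extended to 12 Gy, and not changes seen at 12 Gy.

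Irf7, the transcription factor that amplifies type I interferon production, stood higher in lung at the upper doses by its brightest probe. Its levels were 12.61, 12.17 and 12.45 at 0 Gy, 12.07, 11.80 and 12.06 at 1 Gy, 12.64, 12.97 and 12.61 at 2 Gy, 12.98, 13.00 and 13.23 at 4 Gy, 12.72, 13.08 and 12.62 at 8 Gy, and 13.33, 13.53 and 13.11 at 12 Gy. Mice at 4, 8 and 12 Gy were all above those at 0 Gy, and the 12 Gy change, 0.91 (SE 0.17, adjusted p = 0.00248), stayed under the fold limit. Another Irf7 probe, above background on every array, gave 0.32 at 12 Gy (adjusted p = 0.306). In liver Irf7 gave 13.17, 12.96 and 13.07 at 0 Gy, 12.94, 13.01 and 13.14 at 1 Gy, 13.39, 13.49 and 12.93 at 2 Gy, 13.08, 13.19 and 13.30 at 4 Gy, 12.93, 13.17 and 12.98 at 8 Gy, and 12.90, 12.76 and 12.87 at 12 Gy, with all 12 Gy mice below all 0 Gy mice. Bst2 (tetherin) was 0.49 higher in lung at 12 Gy (adjusted p = 0.0259).

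The difference between tissues was tested with all 36 arrays normalized and fitted together. Changes within a tissue come from its arrays normalized on their own, so they do not subtract exactly to these differences. The 12 Gy change was called lower in liver than in lung for 7 of 42 members and higher for 0, against 3.05% and 2.66% of 47376 probes. The median of the members' differences was −0.62, with 34 below 0, and that of all probes −0.09. The trend difference was called for 8 members, all lower in liver (3.56% and 3.68% of all probes were lower and higher). Another Xaf1 probe, well above background on 8 liver arrays, was called for it too (−1.03, adjusted p = 0.0186). The brightest Xaf1 probe was not (−0.70, adjusted p = 0.0844). At an adjusted p alone the differences were 12 and 13, all lower in liver, against 6.63% and 10.9% of all probes lower and 3.32% and 5.54% higher.

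**Figure D3:**
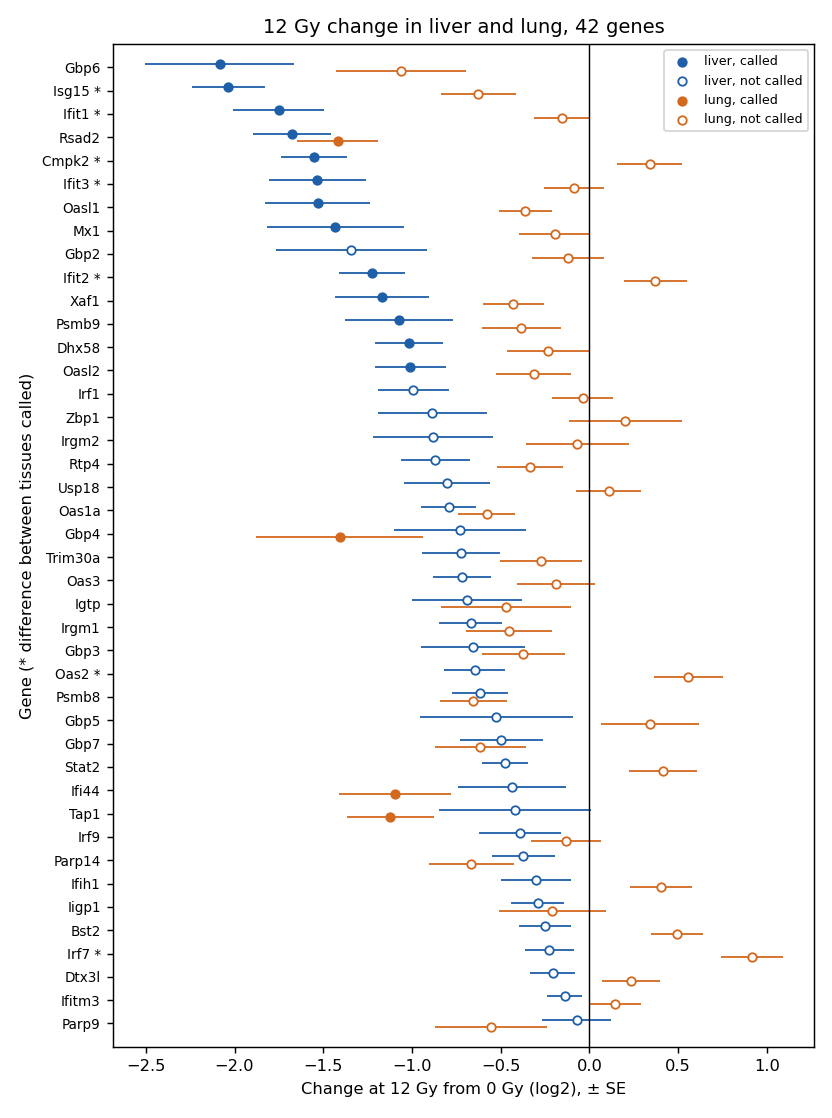
Log2 change at 12 Gy against 0 Gy (horizontal) of each of the 42 members (vertical, ordered by the liver change), in liver and in lung, with bars of 1 SE, filled points for called changes and an asterisk for a called difference between the tissues at 12 Gy. The liver and lung points of Cmpk2, the IFIT genes and Irf7 lie far apart, with Cmpk2 at −1.55 and 0.34, and those of Rsad2 lie at −1.68 and −1.42.

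Cmpk2 differed most between the tissues, by −1.80 at 12 Gy (SE 0.26, adjusted p = 0.000157). In lung its levels were 10.76, 10.41 and 10.70 at 0 Gy, 10.59, 10.28 and 10.76 at 1 Gy, 10.39, 10.50 and 10.53 at 2 Gy, 10.41, 10.69 and 10.55 at 4 Gy, 10.17, 10.33 and 10.79 at 8 Gy, and 10.75, 11.14 and 10.99 at 12 Gy, a change of 0.34 (adjusted p = 0.2). Its neighbour Rsad2 fell in both tissues, and the difference for Rsad2 was 0.00 (SE 0.31, adjusted p = 0.996).

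None of the IFIT genes was called in lung. Ifit1 gave 10.86, 10.57 and 10.85 at 0 Gy, 10.82, 10.63 and 10.64 at 1 Gy, 10.85, 11.20 and 10.99 at 2 Gy, 10.79, 11.26 and 11.09 at 4 Gy, 10.61, 10.97 and 10.79 at 8 Gy, and 10.67, 10.59 and 10.56 at 12 Gy, and its tissue difference was −1.40 (SE 0.28, adjusted p = 0.00305). Ifit2 gave 9.02, 9.35 and 9.40 at 0 Gy, 9.54, 9.30 and 9.29 at 1 Gy, 9.05, 9.59 and 9.49 at 2 Gy, 9.51, 9.70 and 9.89 at 4 Gy, 9.55, 9.49 and 9.73 at 8 Gy, and 9.42, 9.88 and 9.58 at 12 Gy, and its difference was −1.62 (SE 0.26, adjusted p = 0.000389). Ifit3 gave 13.44, 13.38 and 13.62 at 0 Gy, 13.51, 13.40 and 13.37 at 1 Gy, 13.69, 14.06 and 13.82 at 2 Gy, 13.60, 14.08 and 14.09 at 4 Gy, 13.52, 13.88 and 13.53 at 8 Gy, and 13.57, 13.25 and 13.36 at 12 Gy, and its difference was −1.25 (SE 0.31, adjusted p = 0.0108). In lung Ifit2 was higher than at 0 Gy in every mouse at 4, 8 and 12 Gy, and the group means of Ifit3 were highest at 2 and 4 Gy.

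Irf7 differed by −1.23 at 12 Gy (SE 0.23, adjusted p = 0.00142), while its other probe gave −0.51 (adjusted p = 0.256) and the mean of its probes −0.87, not called. The call of Oas2 was lost in the same way and with slide as a random block. Oas2, a large synthetase of the family, differed by −1.18 (SE 0.26, adjusted p = 0.00523). In liver Oas2 gave 7.89, 7.72 and 8.12 at 0 Gy, 7.87, 8.01 and 7.54 at 1 Gy, 7.66, 8.09 and 7.68 at 2 Gy, 7.65, 7.68 and 7.78 at 4 Gy, 7.30, 7.64 and 7.70 at 8 Gy, and 7.22, 7.49 and 7.08 at 12 Gy. In lung it gave 9.47, 8.84 and 9.15 at 0 Gy, 8.68, 8.68 and 8.86 at 1 Gy, 8.79, 9.52 and 9.38 at 2 Gy, 9.42, 9.31 and 9.32 at 4 Gy, 8.97, 9.06 and 9.12 at 8 Gy, and 9.70, 9.96 and 9.47 at 12 Gy. At 12 Gy Oas2 lay below all 0 Gy mice in liver and above them in lung, where the closest pair both round to 9.47.

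Isg15 also differed, by −1.09 (SE 0.30, adjusted p = 0.0186). With lung normalized on its own, Isg15 changed by −0.63 there at 12 Gy (SE 0.21, adjusted p = 0.0460). The calls of Isg15 and Ifit3 at 12 Gy were lost without the 12 Gy mouse 6, and that of Isg15 also without the 0 Gy mouse 1 or 11. Oas3 was called for the trend difference alone (−1.12, SE 0.28, adjusted p = 0.00603), from a probe that was not well above background on any irradiated array. With slide as a fixed term 0 members were called for the trend difference, the median was 0.00 and 21 of 42 lay below 0, with Cmpk2 at −0.98 (adjusted p = 0.690), Ifit2 at −1.50 (adjusted p = 0.517) and Ifit1 at −1.15 (adjusted p = 0.693). The 12 Gy difference could not be fitted with slide as a fixed term, and with slide as a random block 4 members were called.

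Unirradiated liver and lung were compared in the same joint fit, as lung minus liver. Of 42 members 8 were called lower in lung than in liver and 4 higher (17.3% and 18.3% of all probes), and at an adjusted p alone 16 were lower and 9 higher (26.9% and 26.0%). Oasl1 gave 10.71, 10.90 and 10.65 in liver and 7.67, 7.87 and 7.72 in lung, a difference of −3.00 (SE 0.22, adjusted p = 1.64e-12). Iigp1, an immunity-related GTPase, gave 15.15, 15.04 and 15.28 in liver and 12.52, 12.00 and 12.54 in lung, a difference of −2.80 (SE 0.27, adjusted p = 6.95e-10). Zbp1, Ifih1, Irgm1, Irf7, Dhx58 and Bst2 differed by −1.74 to −1.17. Gbp4 was higher in lung, with 8.91, 8.51 and 8.21 in liver and 11.19, 10.02 and 10.94 in lung (2.17, SE 0.45, adjusted p = 0.000155), as were Gbp2 by 1.90, Oasl2 by 1.69 and Irf1 by 1.17. Scaling to the 75th percentile moved the median of all probes from −0.05 to −0.56 and that of the members from −0.23 to −0.47. It called 16 members lower in lung and 3 higher, which were Gbp2, Gbp4 and Oasl2. The share of all probes called under that scaling is not given here, so these counts cannot be set against it. Irf1 then differed by 0.15 and was not called, nor was it with the processed signal, the authors' series values (0.03) or the mean of its probes, and its other probe gave −0.33 (adjusted p = 0.274).

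Members were also set side by side by ISRE match. In liver at 12 Gy 4 of 18 measured members with an ISRE match were called lower, with a median of −0.70, and 6 of 13 with a promoter but no match, with a median of −0.99. In lung the medians were −0.17 with 1 called and −0.31 with 2 called. These are descriptions of short windows, and elements elsewhere were not searched.

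Genes of the pathway outside the members were followed in 3 further lists. Of 22 interferon ligand, receptor and signalling genes, 19 were tested in liver, where Irf5 (−1.20, adjusted p = 0.00054) was among those called lower and 0 were called higher at 12 Gy. In lung 20 were tested, and Ifng (−1.22, adjusted p = 0.012), Irf5 (−1.46, adjusted p = 9.1e-06) and Irf8 (−1.35, adjusted p = 0.00016) were called lower. Their medians were −0.07 in liver and −0.03 in lung. Of 16 nucleic acid sensors and adaptors, Samhd1 (−1.16, adjusted p = 0.0025) was called lower in liver and 0 were called in lung. Of 31 further interferon-stimulated and MHC class I loading genes 26 were matched and tested. In liver the chemokine Cxcl9 (−2.25), Gbp8 (−1.78), Ifit3b (−1.68) and Gbp9 (−1.30) were called lower, and in lung Sp100 (−1.62), Cxcl10 (−1.40), Cxcl9 (−1.35), Nlrc5 (−1.33), the MHC class I transactivator, and B2m (−1.06) were. Ifit3 and Ifit3b are near-identical, as are several of the Gbp genes, so which copy a probe measured is uncertain.

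Markers of lymphocytes were lower after irradiation in both tissues. At 12 Gy B cell markers were called lower for 7 of 11 tested in liver and 12 of 12 in lung, T cell markers for 4 of 9 and 10 of 10, and natural killer cell markers for 4 of 7 and 8 of 8. The summed signal of 12 B cell markers ranged from 1106 to 1568 at 0 Gy and from 396.0 to 466.2 at 12 Gy in liver, and from 18882 to 43802 and from 1432 to 1684 in lung. For 10 T cell markers it went from 3571 to 4016 at 0 Gy to 2407 to 2777 at 12 Gy in liver, and from 10168 to 50954 to 1531 to 2276 in lung, where the 0 Gy mouse 21 held the highest value. For 8 natural killer cell markers it went from 1057 to 1184 at 0 Gy to 467.0 to 624.1 at 12 Gy in liver, and from 11541 to 12497 to 2308 to 4561 in lung. On a 12 Gy array 4 of the 12 B cell markers were well above background in liver and 3 to 4 in lung, against 9 to 11 and 12 at 0 Gy, and 6 to 7 of the 10 T cell markers were in both tissues. The 12 Gy sums and list medians therefore lie partly at background.

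Of 9 Kupffer cell and macrophage markers 0 were called at 12 Gy in either tissue, and at an adjusted p under 0.05 alone 5, Adgre1, Cd68, Clec4f, Csf1r and Timd4, were lower in liver and 0 in lung. Their median change at 12 Gy was −0.60 in liver and 0.22 in lung. Their summed signal went from 43700 to 49968 at 0 Gy to 30544 to 31425 at 12 Gy in liver, and from 29790 to 36741 to 30607 to 53425 in lung. Plasmacytoid dendritic cell markers were called lower for 3 of 6 in liver and 3 of 7 in lung, endothelial markers for 1 of 8 and 0 of 8, and neutrophil markers for 1 of 9 and 1 of 10, with 1 neutrophil marker called higher in lung. The plasmacytoid sum went from 7552 to 8585 at 0 Gy to 7603 to 10798 at 12 Gy in liver. In lung it went from 37875.5 to 54122 to 23743 to 66988. Of 10 hepatocyte markers 0 were called in liver, where their sum went from 2795020 to 2892060 at 0 Gy to 2715390 to 2824940 at 12 Gy. Of 8 lung epithelial markers 1 was called lower in lung. The median log2 change at 12 Gy was −1.39 in liver and −3.94 in lung for the B cell list and −1.05 and −3.68 for the T cell list, beside −0.73 and −0.22 for the interferon response genes. The part of these cells in the result was not tested.

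**Figure D4:**
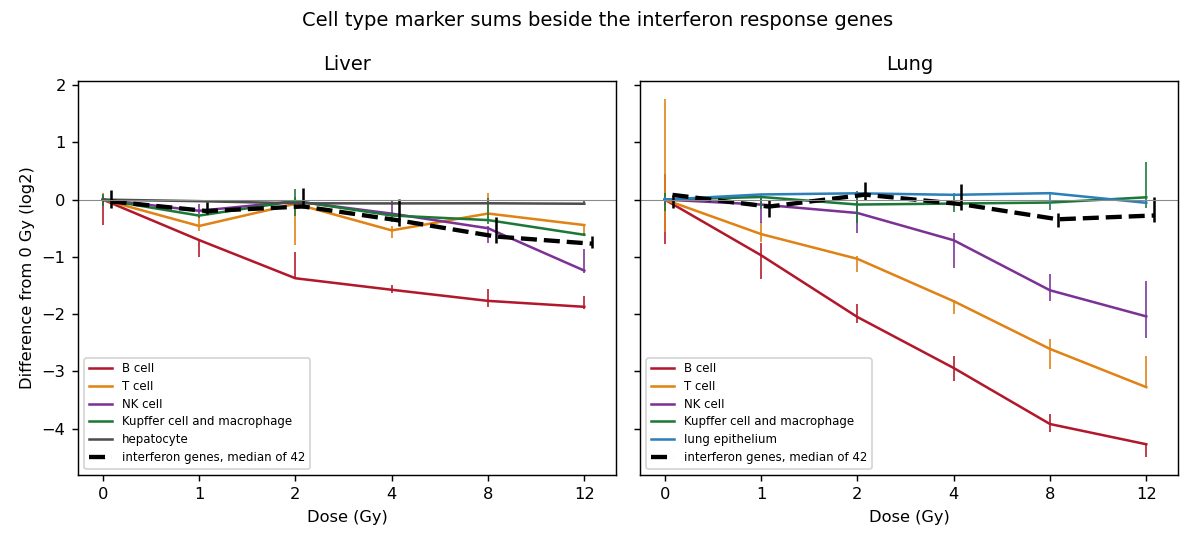
Summed signal of B cell, T cell, natural killer cell, and Kupffer cell and macrophage markers in liver and lung, of hepatocyte markers in liver, and of lung epithelial markers in lung. Sums are log2 differences from the median of the 0 Gy mice, by dose in Gy. Lines run through the medians of 3 mice and bars from the lowest to the highest mouse. A dashed line gives the median change of the interferon response genes on the arrays. B cell markers in lung, whose sums went from 18882 or more at 0 Gy to 1684 or less at 12 Gy, lie lowest, and hepatocyte and lung epithelial markers lie near 0.

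**Figure D5:**
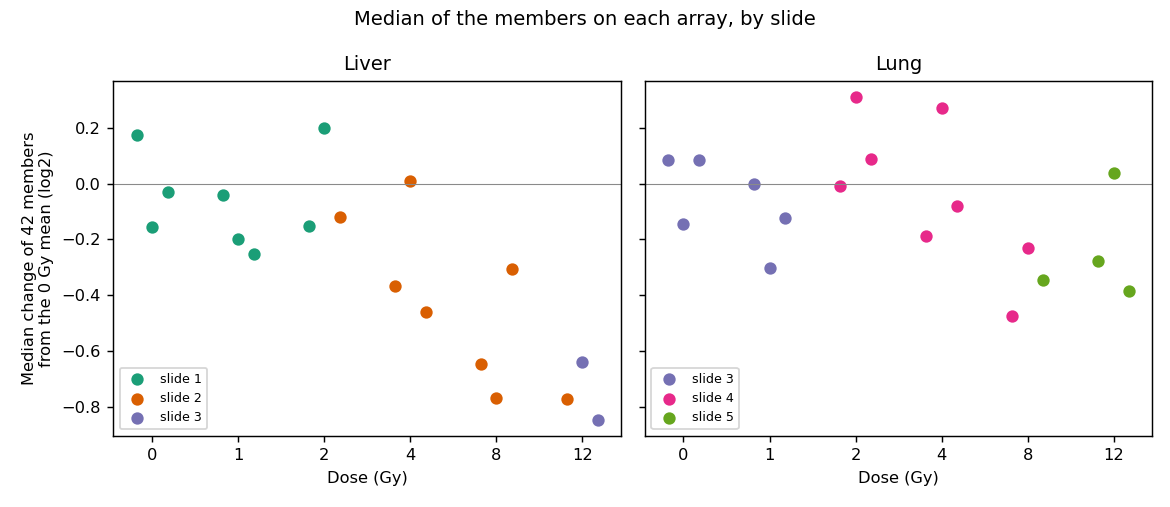
Median change of the 42 members on each array against the mean of the 0 Gy mice of that tissue, by dose in Gy, with arrays marked by slide. Liver arrays at 12 Gy lie on slides 2 and 3 at −0.84 to −0.64, and the lung arrays at 12 Gy, all on slide 5, lie from −0.38 to 0.04.

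The 3 liver arrays at 12 Gy had member medians of −0.77, −0.64 and −0.84, with the first on another slide than the other two. At 8 Gy the medians were −0.65, −0.77 and −0.30, so that 1 mouse stood nearer to 0. In lung the medians at 12 Gy were −0.28, 0.04 and −0.38. The mouse at 0.04, with 39 of the 42 members measured, is the one with the highest Irf7, Mx1 and Oas2. Its array held 1578 outlier spots, against 110 to 600 on the other lung arrays, and the part of this in its values was not tested.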

How the data were processed

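Liver and lung RNA of 18 irradiated or sham-irradiated mice per tissue was measured on 36 1-colour Agilent mouse gene expression arrays. The intensity values that the authors deposited give the median pixel of a spot and the median of the background around it, as Agilent Feature Extraction 11.5.1.1 wrote them, linear and not normalized. Its processed signal and the authors' series values, whose procedure is not stated, were used as alternatives, and no column of comparisons was used. The arrays hold 59305 spots of 56605 probes, 34568 of them named. The number of arrays limits the precision.

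Median intensities were corrected with normexp (offset 0) in limma 3.58.1 (R 4.3.3, statmod 1.5.0), control spots were dropped, outlier spots set to missing, and arrays of 1 tissue quantile-normalized. Spots of 1 probe were averaged on the log2 scale. Tested probes were well above background, on at least 0.5 of their spots, on at least 1 array. Following the study's methods, limma compared each dose with 0 Gy and fitted a linear trend, given over 12 Gy. All 36 arrays were normalized together for the tissue difference. Adjusted p values are Benjamini-Hochberg values from limma over all tested probes, and calls needed an absolute log2 change above 1 and an adjusted p below 0.05. An outlier spot left 2 lung mice for Irf9, Oasl2 and Parp9 at 12 Gy and for Parp14 at 4 Gy. Mx1 was named through the accession that the study's supplement pairs with it.

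Genes given in every mouse are those called at a dose or on the trend, at most the 10 largest changes at 12 Gy per tissue, and the 6 largest called tissue differences. The members and lists were chosen with earlier results of these data known. Whether equal mouse numbers mark the same animal in liver and lung is not given in the sources used here. Over all probes tested in both tissues, the deviations of equally numbered samples from their group means correlated between −0.07 and 0.10, so samples were not paired. By the median of the members, the highest sample of a dose had the same number in both tissues at 1, 2, 4 and 12 Gy. At 0 and 8 Gy it did not. Mouse 13 at 2 Gy, for example, stood at 0.20 in liver and 0.31 in lung. The scripts were tested on simulated data. Figures used matplotlib 3.10.9 and pandas 2.3.3 in Python 3.11.15. Alternatives covered the background correction, the scaling, the signal column, the filter on dim probes, the slide, the mouse number as a block, the mean of a gene's probes, the fold limit, a fit of both tissues together, and each mouse left out in turn. Fits within or without single slides were added after the data were seen. A gene of the signalling list that was part of the tests is not reported here.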

Additional observations from a re-analysis of the deposited data

Results flagged for a closer look

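By their brightest probes, the change with dose differed between liver and lung for 8 members in a test of the difference itself. The test was the interaction of tissue and dose in limma, and each member stood lower in liver. The difference in the 12 Gy change, liver minus lung on the log2 scale, was −1.80 for Cmpk2, −1.62 for Ifit2, −1.40 for Ifit1, −1.25 for Ifit3, −1.23 for Irf7, −1.18 for Oas2 and −1.09 for Isg15. The difference in the trend over 12 Gy was −1.67 for Cmpk2, −1.54 for Ifit2, −1.32 for Ifit1, −1.14 for Ifit3, −1.30 for Irf7, −1.13 for Oas2, −1.02 for Isg15 and −1.12 for Oas3. The Oas3 probe was well above background on only 2 arrays of each tissue, all at 0 Gy. Another Irf7 probe gave −0.51 at 12 Gy (adjusted p = 0.256) and −0.60 on the trend (adjusted p = 0.111). With slide as a fixed term the trend differences were −0.98 for Cmpk2, −1.50 for Ifit2, −1.15 for Ifit1, −0.94 for Ifit3, −0.91 for Oas3, −0.66 for Irf7, −0.57 for Isg15 and −0.39 for Oas2, and none was called. In lung, slide and dose cannot be told apart for 2 Gy and above against 0 Gy.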

How the results depend on the processing

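Numbers of members called are compared here, the reported number first. At an adjusted p alone the number rose from 1 to 3 in liver at 4 Gy, from 9 to 16 at 8 Gy, from 13 to 21 at 12 Gy and from 14 to 28 on the trend, from 3 to 5 in lung at 8 Gy, from 4 to 9 at 12 Gy and from 4 to 17 on the trend, from 7 to 12 for the tissue difference at 12 Gy, from 8 to 13 for its trend, and from 12 to 25 between unirradiated tissues. With slide as a fixed term it fell to 0 in liver at 4 and 8 Gy, to 1 at 12 Gy and on the trend, and to 0 for the lung trend and the trend difference. With slide as a random block it was 0 in lung at 2 and 4 Gy, 1 at 12 Gy and 4 for the 12 Gy difference. The 12 Gy difference gave 11, 13 and 12 with 75th percentile scaling, the processed signal and the authors' series values, its trend gave 15 with the processed signal, and unirradiated tissues gave 19 with each of the 3. In lung the offset of 50 and the fit of both tissues gave 1 at 1 Gy, and the processed signal, the series values, no filter on dim probes, the mean of a gene's probes and leaving out slide 5 gave 0 at 2 Gy. Fits within slides 1 and 2 (liver trend) and slide 4 (lung trend), chosen after seeing the data, gave 0. The cause of these differences was not tested, except that fits within a slide hold fewer samples.

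Leaving out each mouse in turn gave 0 to 0 in liver at 1 and 2 Gy, 1 to 2 at 4 Gy, 4 to 12 at 8 Gy, 8 to 14 at 12 Gy and 12 to 14 on the trend. In lung it gave 0 to 0 at 1 Gy, 0 to 1 at 2 and 4 Gy, 3 to 4 at 8 Gy, 2 to 5 at 12 Gy and 3 to 7 on the trend. The tissue difference gave 5 to 8 at 12 Gy and 7 to 9 on the trend, and unirradiated tissues 12 to 13. Pairing liver and lung by mouse number as a replicate block gave 9 for the 12 Gy difference, 10 for its trend and 12 between unirradiated tissues. Over all probes tested in both tissues, equally numbered samples correlated between −0.07 and 0.10, and 7 of 18 correlated best with their own number. None of the 77 called results of single members changed direction under the alternatives they were recomputed with, which do not include the fits within a slide, and values of members that were not called were not followed in this way. Some results were called under every one of those alternatives that could be fitted, the fits within a slide again left out. These were Cmpk2 in liver at 12 Gy and on the trend, and Rsad2 in lung at 8 and 12 Gy. Cmpk2, Ifit1 and Ifit2 for the 12 Gy difference also were, as were Dhx58, Gbp4, Ifih1, Iigp1, Oasl1 and Oasl2 between unirradiated tissues. Within slides 1 and 2 the liver trend called 0 members, so Cmpk2 was not called there. Comparisons of lung at 2 Gy and above with 0 Gy, and the 12 Gy difference, could not be fitted with slide as a fixed term.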
